A study of Mus musculus with 2 samples.

Results

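The transforming growth factor β (TGF-β) axis was followed as 8 genes across the cell clusters of nephritic mouse kidneys. They were taken by name as the ligand gene Tgfb1, the integrin gene Itgb8, the receptor genes Tgfbr1 and Tgfbr2, the signal transducer gene Smad3, the inhibitor genes Smad7 and Skil, and the target gene Tgfbi. All 8 were found among the 20299 genes of the deposited table. In nephrotoxic serum nephritis (NTN), antibodies that bind the glomerulus injure the kidney. C57BL/6 mice of 8 weeks of age, WT or Vsir-/-, were immunized with 200 μg of sheep IgG in Freund's complete adjuvant, and 4 days later they received nephrotoxic sheep serum. Vsir encodes VISTA, an immune checkpoint protein of myeloid cells and T cells, and the Vsir-/- line was established from repository sperm. Kidneys were digested with liberase, and single-cell transcripts were counted as unique molecular identifiers (UMIs) in 1 library per genotype. The number of mice behind each library is not given in the sources used here.

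TGF-β is secreted as a latent complex and signals only after it is released, for example by integrins. The free ligand binds the type 2 receptor, which recruits and phosphorylates the type 1 receptor, and the type 1 receptor then phosphorylates Smad2 and Smad3, which enter the nucleus with Smad4. In the kidney, the pathway is known for restraining T cells and macrophages and for driving matrix deposition after injury.

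The WT library held 5470 cells and 32799550 UMIs, and the Vsir-/- library held 1844 cells and 18601189 UMIs. Vsir itself gave 4278 UMIs in the WT library and 8 in the Vsir-/- library, or 130 and 0.43 CPM, where CPM are UMIs per 1000000 UMIs of the same cells. With 1 library per genotype there was no replicate, so no test between genotypes was made. Every interval is a 95% interval for counting error only and says nothing of differences between mice. The labels describe sorted CD45+ cells for the WT library and all kidney cells for the Vsir-/- library, whereas the methods of the study describe a CD45+ sort. Ptprc, which encodes CD45, gave a UMI in 94.2% of WT cells and in 73.6% of Vsir-/- cells. Transcripts of 15 kidney tubule genes summed to 17.1 CPM with 8 of 15 genes seen in the WT library, and to 8351 CPM with 15 of 15 seen in the Vsir-/- library, where every one of the 1844 cells held at least 1 such UMI. The libraries shared 5 cell barcodes. Of 16 clusters named by the authors, 12 held at least 25 cells in both libraries and were compared. In each, a gene was compared if it had at least 20 UMIs over both libraries, and a ratio of at least 2-fold (1 on the log2 scale) was used to describe a difference. Such counts are given with the share of all genes of that cluster that were as far apart in the same direction. The ratio used for these counts has 0.5 UMI added on each side. Orders of levels are over the clusters with at least 25 cells in that library. This leaves out the plasmacytoid dendritic cells of the WT library (21 cells). It also leaves out the basophils (2 cells) and the group 2 innate lymphoid cells of the Vsir-/- library, which held no NKT cells.

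Tgfb1 encodes the main TGF-β ligand of leukocytes. Among clusters with at least 25 cells, its transcripts were most abundant in macrophages in both libraries. The 21 WT plasmacytoid dendritic cells had 332 CPM (267 to 410). In the WT library, the level was 365 CPM (348 to 384) in M2-like R2 macrophages, which infiltrate the injured kidney, 322 CPM in other R2 macrophages, and 255 CPM in R1 macrophages, which reside in the kidney. These 3 clusters lay apart from each other beyond counting error. Basophils, group 2 innate lymphoid cells, B cells, γδT cells, EM-like (effector memory–like) CD4+ T cells, NKT cells, and proliferating cells followed between 254 and 177 CPM, and no neighbors within this range were apart beyond their intervals. The lowest WT levels were those of the non-EM-like T cell clusters, at 77.4 CPM for CD4+ and 68.0 CPM for CD8+ cells. M2-like R2 macrophages alone held 27.9% of all WT Tgfb1 UMIs with 8.3% of the WT cells.

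In the Vsir-/- library, other R2 macrophages had the highest Tgfb1 level of the clusters with at least 25 cells, at 362 CPM, followed by M2-like R2 macrophages at 279 CPM and R1 macrophages at 235 CPM. As a log2 ratio (Vsir-/- over WT), the difference was −0.39 (−0.54 to −0.24) in M2-like R2 macrophages, −0.12 (−0.38 to 0.15) in the R1 cluster, and 0.17 (−0.06 to 0.39) in other R2 macrophages. Thus the infiltrating M2-like cluster was lower in the Vsir-/- library, and the intervals of the other 2 macrophage clusters included 0. B cells had 211 CPM in the WT library and 89.6 CPM in the Vsir-/- library, a log2 ratio of −1.22 (−1.69 to −0.81), and 15.9% of the 9094 genes compared in this cluster were at least 2-fold lower. Only 45 of the 88 Vsir-/- cells of this cluster had a UMI of a B cell marker (Cd79a, Cd79b, or Ms4a1), compared with all 969 WT cells. Among cells with such a marker, the Tgfb1 level was 211 CPM in the WT library and 85.2 CPM in the Vsir-/- library, so the ratio was as large without the other cells. In neutrophils the level was 90.3 CPM in the WT library and 45.0 CPM in the Vsir-/- library (log2 ratio of −0.99, −1.56 to −0.48).

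**Figure D1:**
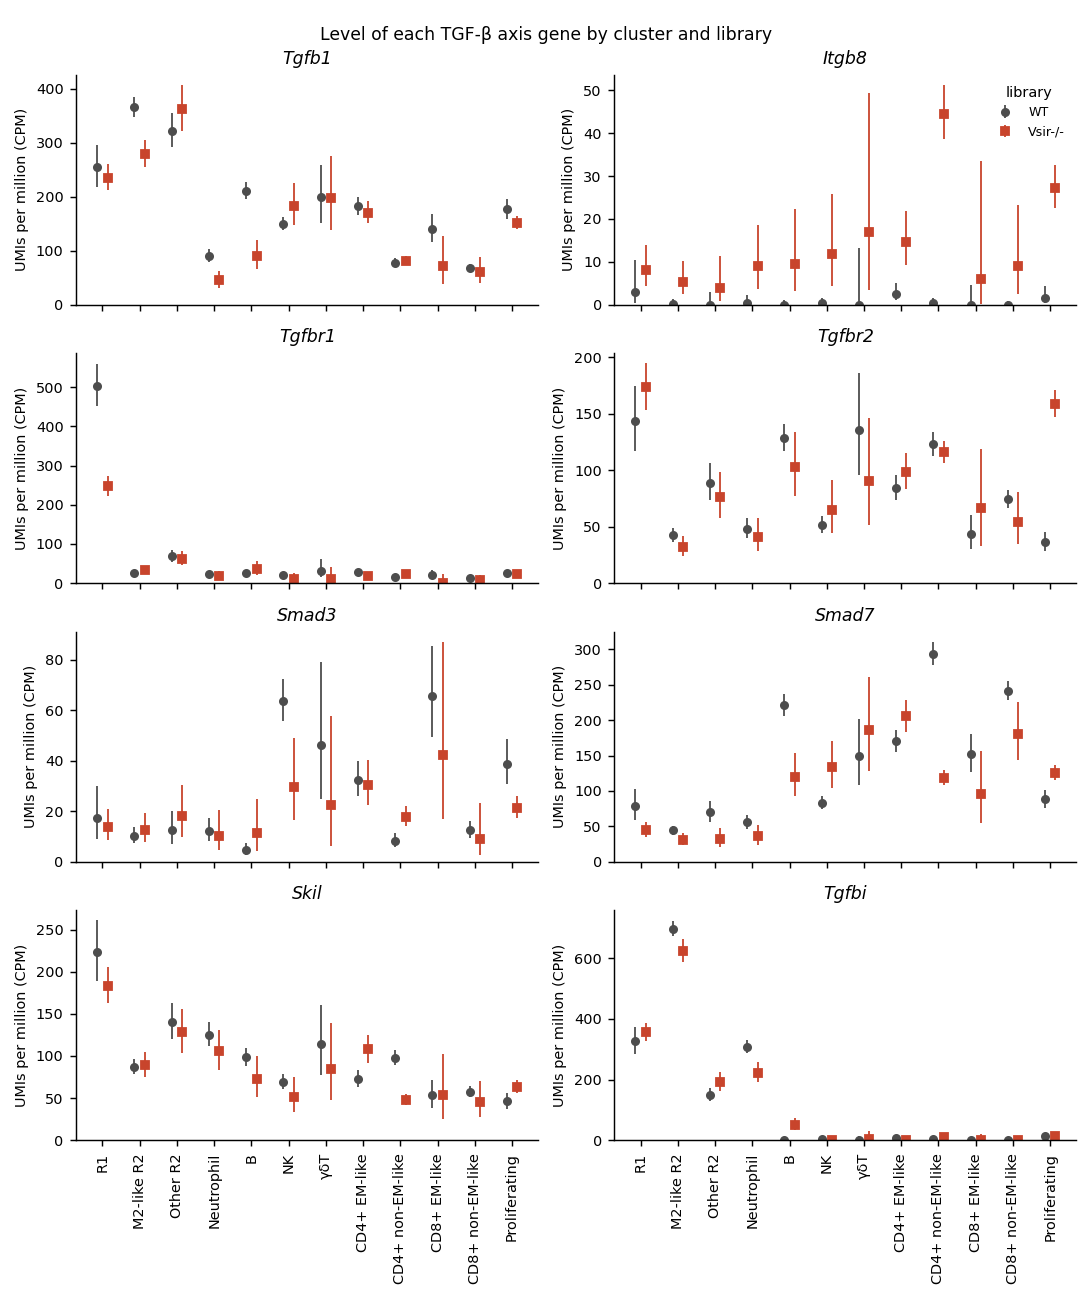
Level of the 8 genes (CPM, y axis) in 12 clusters (x axis) of the WT library (gray circles) and the Vsir-/- library (red squares), with 95% counting intervals. Tgfbr1 stands out in R1 macrophages at 504 and 247 CPM, Tgfbi is highest in myeloid clusters, and Itgb8 is near 0 in every WT cluster shown.

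Tgfb1 in non-EM-like CD4+ T cells depended on which cells of the cluster were counted. The cluster as a whole had 77.4 CPM in the WT library and 81.1 CPM in the Vsir-/- library. However, 233 of its 349 Vsir-/- cells had no UMI of a T cell receptor or CD3 gene (Cd3d, Cd3e, Cd3g, Trac, Trbc1, or Trbc2), whereas all 895 WT cells had one. Among cells with such a transcript, Tgfb1 was at 77.4 CPM in the WT library and 125 CPM (106 to 147) in the Vsir-/- library, with a log2 ratio of 0.70 (0.41 to 0.98). The 233 Vsir-/- cells without one were at 65.1 CPM (56.8 to 74.3).

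Itgb8 encodes the β8 chain of integrin αvβ8, which releases active TGF-β from its latent complex. It had 17 UMIs in the WT library and 425 in the Vsir-/- library, or 0.52 and 22.8 CPM, a log2 ratio of 5.42 (4.77 to 6.26). In cells with at most the median tubule share of their own cluster and library, the log2 ratio was 2.80. Of the 179 Vsir-/- cells with an Itgb8 UMI, 108 had no Ptprc UMI, and all 13 such WT cells had one. The UMIs were unevenly spread, with 205 in the non-EM-like CD4+ cluster and 121 in proliferating cells, together more than in the other 13 Vsir-/- clusters. In these 2 clusters Itgb8 was at least 2-fold higher in the Vsir-/- library, as were 47.8% of the 12583 genes compared in the non-EM-like CD4+ cluster and 37.5% of the 12248 compared in proliferating cells.

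Within the non-EM-like CD4+ cluster, 186 of the 205 UMIs lay in the 233 Vsir-/- cells without a T cell transcript, at 55.1 CPM (47.4 to 63.6). The 116 cells with one held 19 UMIs, at 15.6 CPM (9.4 to 24.3), and the 895 WT cells held 2. There were 2.74 Itgb8 UMIs per 1000 UMIs of the tubule genes over the whole Vsir-/- library, 2.42 in the non-EM-like CD4+ cluster, 3.08 in proliferating cells, 2.97 in the R1 cluster, and 2.88 in the M2-like R2 cluster. The B cell cluster was below this, with 1.09 per 1000, as were other R2 macrophages (1.45) and the CD8+ non-EM-like cluster (1.73), and γδT cells were above it (7.13, from 3 UMIs). The group 2 innate lymphoid cluster was above this, with 12.8 per 1000 from 17 UMIs in 3 cells. Tubule levels were alike in B cells, proliferating cells, and group 2 innate lymphoid cells (8732, 8830, and 9096 CPM). Their Itgb8 levels were 9.53, 27.2, and 117 CPM. The B cell value rested on 5 UMIs, with 3 from the same cell. The innate lymphoid cluster held 19 Vsir-/- cells, too few for the orders of levels, and 8 of its 17 UMIs came from the same cell. The part of tubule transcripts in the Itgb8 level was not tested.

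**Figure D2:**
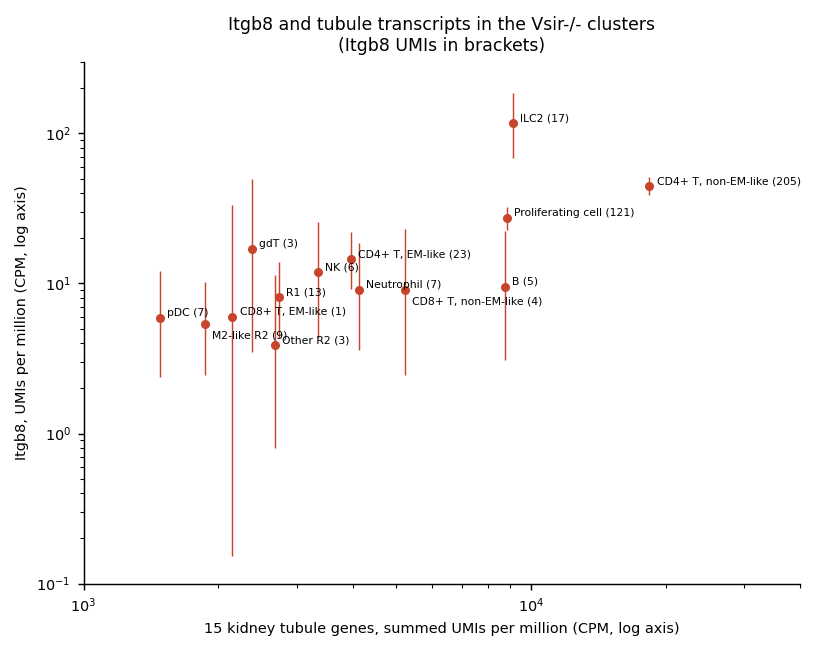
Itgb8 level (CPM, log y axis, with 95% counting intervals) against the summed level of 15 kidney tubule genes (CPM, log x axis) in the Vsir-/- clusters, without the basophil cluster of 2 cells. The clusters with 205 and 121 Itgb8 UMIs have 18402 and 8830 CPM of tubule genes, and the lymphoid cluster with 17 UMIs lies above the others.

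By level, WT Itgb8 was at 2.88 CPM in R1 macrophages, from 2 UMIs, and at 2.50 CPM in EM-like CD4+ T cells, which were not apart. EM-like CD4+ T cells held the most Itgb8 UMIs of the WT clusters, at 7 of 17. Of these 7, 5 were found in the 24 WT cells with a UMI of Foxp3, the regulatory T cell factor, which gave 33.0 CPM (10.7 to 77.0), compared with 0.75 CPM (0.09 to 2.73) in the 465 cells without Foxp3. Lrrc32, which encodes the anchor that holds latent TGF-β on regulatory T cells, had 3 UMIs in the same 24 cells and 0 in the other 465. Itgae, an integrin gene induced by TGF-β, was at 72.6 CPM (36.2 to 130) in the cells with Foxp3 and 11.3 CPM (7.6 to 16.2) in those without. Thus all 3 genes were higher in the WT cells with Foxp3, although on few UMIs and few cells. The 5 Itgb8 UMIs lay in 3 cells, with 3 from the same cell, and the 11 Itgae UMIs lay in 4 cells. The intervals do not cover such clumping within cells. Of the 23 Itgb8 UMIs of this cluster in the Vsir-/- library, 1 lay in the 15 cells with Foxp3. The 229 other cells held 22, and the levels were 10.95 and 14.8 CPM. Lrrc32 had 2 and 21 UMIs in these Vsir-/- cells, or 21.9 and 14.1 CPM. For both genes the intervals of the Vsir-/- cells with and without Foxp3 overlapped. Itgae was at 43.8 CPM (11.9 to 112) in the Vsir-/- cells with Foxp3, from 4 UMIs. It was at 2.02 CPM (0.42 to 5.90) in those without, from 3 UMIs, so it was higher with Foxp3 in both libraries. Itgb8 was at least 2-fold higher in Vsir-/- EM-like CD4+ cells as a whole (2.50 CPM compared with 14.6 CPM), as were 10.4% of the 9751 genes compared there. Tubule genes stood at 8.92 and 3953 CPM in the same cells.

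Tgfbr1 encodes the type 1 receptor, the kinase that phosphorylates Smad2 and Smad3. Among clusters with at least 25 cells, its level was highest in R1 macrophages in both libraries. In the WT library, R1 macrophages had 504 CPM (452 to 559), 7.33-fold (5.79- to 9.37-fold) the level of other R2 macrophages, which came next at 68.7 CPM. None of the other WT clusters with at least 25 cells exceeded 32.1 CPM. R1 macrophages held 32.1% of all WT Tgfbr1 UMIs with 2.1% of the cells. A UMI was found in 76.7% (68.0% to 84.1%) of the 116 WT R1 cells, at a median of 4868.5 UMIs per cell, and in 7.15% of the 895 non-EM-like CD4+ T cells, at a median of 4897 UMIs. The Vsir-/- library had the same leading cluster, with 247 CPM (224 to 273) in R1 macrophages and 62.1 CPM in other R2 macrophages, which was a smaller gap of 3.98-fold (2.95- to 5.49-fold).

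The R1 level of Tgfbr1 was thus 2.04-fold lower in the Vsir-/- library, with 350 UMIs in 116 WT cells and 396 UMIs in 237 Vsir-/- cells. The log2 ratio was −1.03 (−1.24 to −0.81), and 8.78% of the 8862 genes compared in R1 macrophages were at least 2-fold lower. A UMI was found in 59.1% (52.5% to 65.4%) of Vsir-/- R1 cells. After each cell was thinned to 1000 UMIs, the gene was seen in 40.4% of 109 WT and 21.7% of 212 Vsir-/- R1 cells, with 7 and 25 shallower cells left out. The cluster kept its macrophage transcripts, with 7 of 7 markers seen in both libraries and a sum of 13426 CPM in the WT library and 16327 CPM in the Vsir-/- library. Endothelial genes were at 34.5 CPM with 2 of 7 seen in WT R1 cells, where Cdh5, Kdr, Emcn, Egfl7, and Plvap were at 0, and at 1104 CPM with 7 of 7 seen in Vsir-/- R1 cells. Tubule genes were at 31.7 CPM and 2738 CPM. When only cells with a C1q UMI and no endothelial UMI were kept, Tgfbr1 was at 561 CPM in 100 WT cells and 277 CPM in 153 Vsir-/- cells, so the ratio was as large in them (log2 ratio of −1.02). In no other compared cluster with at least 20 UMIs of Tgfbr1 was it at least 2-fold apart. EM-like CD8+ T cells had 18 WT and 0 Vsir-/- UMIs and γδT cells had 9 and 2, which were too few to compare.

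Tgfbr2 encodes the type 2 receptor, which binds the ligand first. In the WT library it was spread over resident macrophages and lymphocytes, with 144 CPM in R1 macrophages, 135 in γδT cells, 129 in B cells, and 123 for the non-EM-like CD4+ cluster, and these 4 neighbors were not apart beyond their intervals. M2-like R2 macrophages (42.6 CPM) and proliferating cells (36.3 CPM) had the lowest levels of the WT clusters with at least 25 cells. Tgfbr2 in R1 macrophages was at 174 CPM in the Vsir-/- library, with a log2 ratio of 0.27 (−0.06 to 0.62), an interval that included 0. Among 12 clusters, only proliferating cells were at least 2-fold apart, with 36.3 CPM in the WT library and 159 CPM in the Vsir-/- library and a log2 ratio of 2.12 (1.78 to 2.50), and 37.5% of all genes compared in this cluster were at least 2-fold higher. The proliferating cells themselves differed. NK markers summed to 7396 CPM in WT and 496 CPM in Vsir-/- cells with 5 of 5 seen in both, T cell transcripts to 2661 and 651 CPM, and endothelial genes to 32.8 CPM with 3 of 7 seen and 3943 CPM with 7 of 7 seen. Among proliferating cells with a T cell transcript, Tgfbr2 was at 36.9 CPM in 114 WT cells and 146 CPM in 66 Vsir-/- cells (log2 ratio of 1.98, 1.60 to 2.39). It was at 165 CPM in the 123 Vsir-/- cells without one. The part of the endothelial transcripts in this ratio was not tested.

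**Figure D3:**
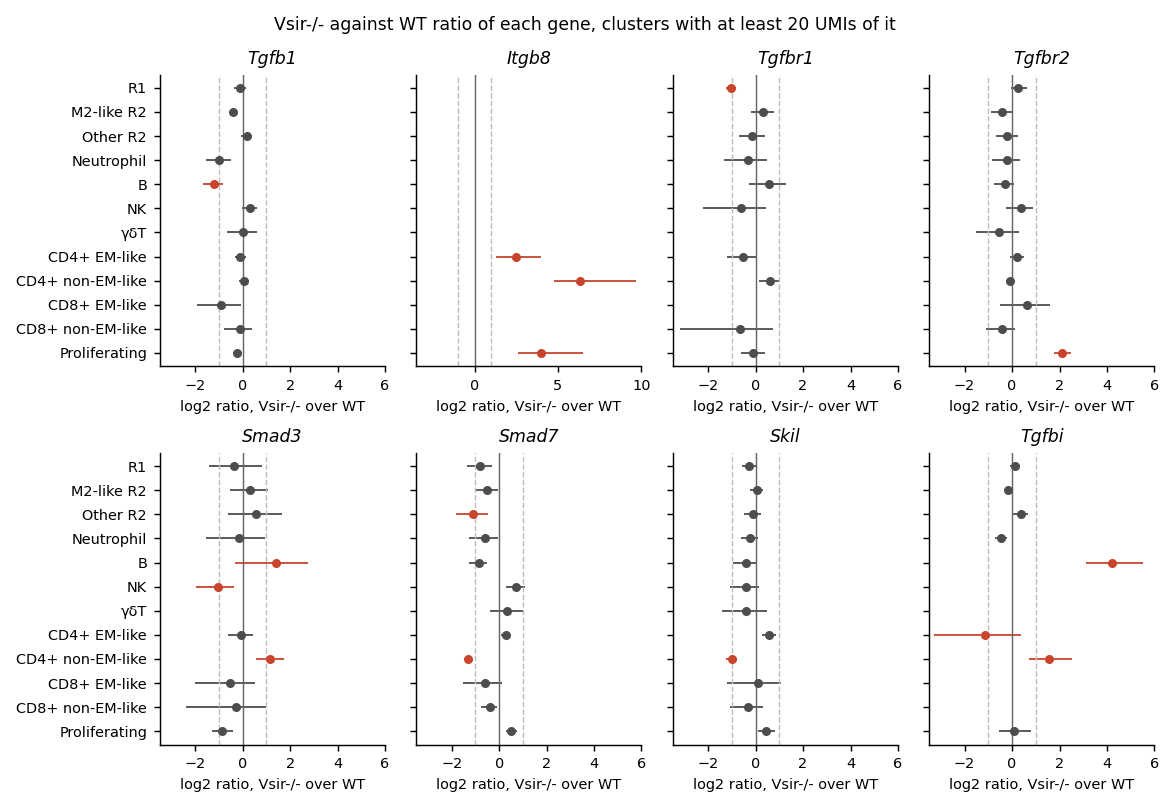
Log2 ratio of Vsir-/- over WT (x axis) for the 8 genes in each compared cluster (y axis) where the gene had at least 20 UMIs, with 95% counting intervals. Dashed lines mark 2-fold, and red points lie beyond it, such as Tgfbr1 in R1 macrophages at −1.03 and Smad7 in the whole non-EM-like CD4+ cluster at −1.31. Among cells of that cluster with a T cell transcript, the Smad7 ratio was −0.83, short of 2-fold.

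Smad3 encodes the transcription factor that carries the TGF-β signal to the nucleus. Among WT clusters with at least 25 cells, its level was highest in cytotoxic lymphocytes. WT EM-like CD8+ T cells had 65.6 CPM and WT NK cells had 63.6 CPM (55.8 to 72.2), which were not apart beyond counting error, and B cells had the lowest level of the WT clusters with at least 25 cells, at 4.59 CPM. NK cells held 33.0% of all WT Smad3 UMIs with 10.9% of the cells. In Vsir-/- NK cells the level was 29.6 CPM (16.6 to 48.8), from 15 UMIs in 15 of 67 cells, compared with 239 UMIs in 195 of 594 WT cells. The log2 ratio was −1.06 (−1.96 to −0.35), and 7.01% of the 8963 genes compared in NK cells were at least 2-fold lower. Both libraries had 5 of 5 NK markers in this cluster, with sums of 18068 and 15670 CPM and a marker UMI in every cell. With each cell thinned to 1000 UMIs, 42 WT and 0 Vsir-/- Smad3 UMIs were left, and 0 allows up to 3. Genes induced by tissue dissociation (7 of 7 seen in both) summed to 2273 CPM in WT and 5275 CPM in Vsir-/- NK cells, and their part in the Smad3 level was not tested.

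Smad3 also differed in other clusters, at lower counts. Proliferating cells had 38.8 CPM in the WT library and 21.4 CPM in the Vsir-/- library (log2 ratio of −0.86, −1.31 to −0.41). A T cell transcript was found in 114 of 118 WT and 66 of 189 Vsir-/- proliferating cells, and Smad3 was at 39.4 and 19.4 CPM in them (−1.01). NK and endothelial transcripts also differed between the libraries in this cluster, as given above, and their part in the Smad3 level was not tested. Non-EM-like CD4+ cells had 8.08 and 17.8 CPM, a log2 ratio of 1.13 (0.56 to 1.75) beside 47.8% of genes at least 2-fold higher, and the 116 Vsir-/- cells with a T cell transcript had 23.0 CPM. However, the median log2 ratio over all genes of this cluster was 0.91, so Smad3 was 0.22 above the typical gene there. In B cells the ratio of 1.39 (−0.33 to 2.74) rested on 6 Vsir-/- UMIs, of which 1 lay in a cell with a B cell marker, and 16.3% of the genes compared in B cells were at least 2-fold higher. EM-like CD4+ T cells did not separate the libraries, with 32.5 and 30.4 CPM.

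Smad7 encodes the inhibitory Smad that blocks the type 1 receptor and is itself induced by the signal. Its WT order was close to the reverse of that of Tgfbi. Non-EM-like CD4+ T cells had 294 CPM (279 to 311), non-EM-like CD8+ T cells had 241 CPM, and B cells had 221 CPM, whereas R1 macrophages had 79.1, other R2 macrophages 70.3, neutrophils 55.6, and M2-like R2 macrophages 44.4 CPM. Across 28 profiles of clusters and libraries with at least 25 cells, the Pearson correlation of log2 levels was −0.84 between Smad7 and Tgfbi, given as a description since profiles of 1 library share its depth and background RNA.

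Smad7 was lower in the Vsir-/- library in all 4 compared myeloid clusters. R1 macrophages had 79.1 CPM in the WT library and 45.0 CPM in the Vsir-/- library (log2 ratio of −0.82, −1.34 to −0.28). Other R2 macrophages had 70.3 and 32.4 CPM (−1.10, −1.82 to −0.47), and 9.52% of the 7555 genes compared in them were at least 2-fold lower. M2-like R2 macrophages had 44.4 and 31.0 CPM (−0.51, −0.99 to −0.07), and neutrophils had 55.6 and 36.0 CPM (−0.61, −1.27 to −0.03). Each interval lay below 0, and the median of all genes in these 4 clusters was between −0.06 and 0.01. The counts were modest, at 72, 25, 52, and 28 Vsir-/- UMIs. In R1 cells with C1q and no endothelial UMI, Smad7 was at 82.7 CPM in the WT library and 37.3 CPM in the Vsir-/- library. In other R2 macrophages, neutrophil genes (5 of 5 seen in both) summed to 3598 CPM in the WT library and 214 CPM in the Vsir-/- library, and tubule genes to 7.81 CPM with 5 of 15 seen and 2676 CPM with 15 of 15 seen. Their part in the Smad7 level was not tested.

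Among the lymphoid and proliferating clusters, the Smad7 ratios had both signs. It was lower in the Vsir-/- library in B cells (221 and 120 CPM, log2 ratio of −0.87, −1.28 to −0.51) and in the non-EM-like CD8+ cluster (241 and 181 CPM, −0.41, −0.76 to −0.09). The B cells with a marker had 161 CPM in the Vsir-/- library. It was higher in NK cells (83.0 and 134 CPM, 0.70, 0.29 to 1.08) and EM-like CD4+ T cells (171 and 205 CPM, 0.27, 0.06 to 0.47). In proliferating cells it was at 88.0 and 126 CPM (0.51, 0.27 to 0.77), where the median over all genes was also 0.51. Summed over the NK cluster, Smad7 was therefore higher and Smad3 lower in the Vsir-/- library. Their levels were not compared cell by cell. Genes induced by dissociation were also higher in the Vsir-/- NK cluster, as given above, and their part in the Smad7 level was not tested.

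In the non-EM-like CD4+ cluster, Smad7 had 1311 UMIs in 895 WT cells and 546 in 349 Vsir-/- cells, or 294 and 119 CPM. The log2 ratio was −1.31 (−1.46 to −1.16), and 10.7% of the genes compared there were at least 2-fold lower. Among cells with a T cell transcript, the Vsir-/- level was 166 CPM (144 to 190), and the log2 ratio of −0.83 no longer reached 2-fold. The 233 Vsir-/- cells without one had 102 CPM (91.3 to 113). Smad7 was thus lower in both sets of Vsir-/- cells than in WT cells, and more so in those without T cell transcripts. Since the median log2 ratio of all genes in the cluster was 0.91, ratios relative to it were −2.22 for Smad7 and −1.93 for Skil, and on that scale Tgfb1 (−0.84) and Tgfbr1 (−0.32), which were above 0 without it, were below 0.

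Skil encodes SnoN, a corepressor that holds Smad complexes inactive. Its highest level was also in R1 macrophages, at 223 CPM in the WT library and 183 CPM in the Vsir-/- library, followed by other R2 macrophages at 140 and 128 CPM. In both libraries R1 macrophages were apart from the next cluster beyond counting error. The R1 ratio of −0.29 had an interval that reached 0 (−0.57 to 0.00). Non-EM-like CD4+ cells had 97.8 CPM of Skil in the WT library and 48.3 CPM in the Vsir-/- library (−1.02, −1.26 to −0.78, beside 10.7% of genes at least 2-fold lower), and 61.5 CPM (48.4 to 77.1) in the Vsir-/- cells with a T cell transcript, a log2 ratio of −0.66 that did not reach 2-fold. EM-like CD4+ T cells had 72.4 and 108 CPM (0.57, 0.27 to 0.87). In these EM-like cells the genes induced by dissociation were at 2580 and 8650 CPM, and their part was not tested. In M2-like R2 macrophages Skil was at 86.7 and 89.0 CPM.

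**Figure D4:**
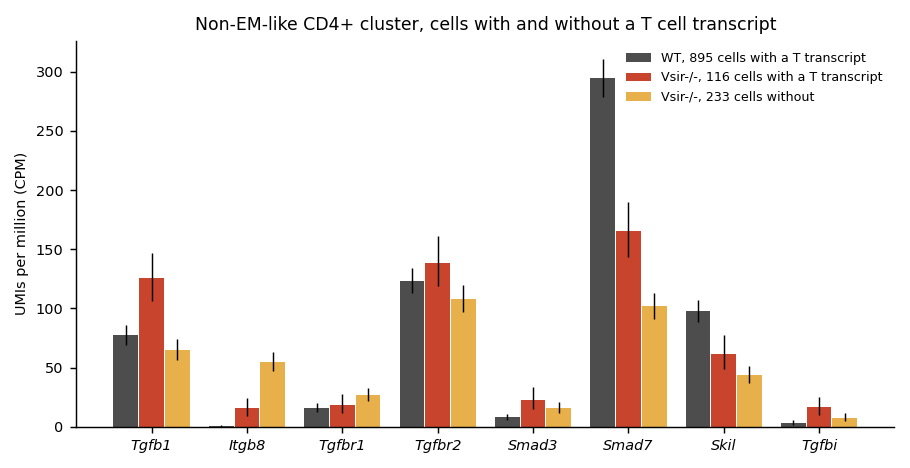
Level of the 8 genes (CPM, bars with 95% counting intervals) within the non-EM-like CD4+ cluster, as WT cells with a T cell transcript (gray), Vsir-/- cells with one (red), and Vsir-/- cells without one (yellow). Smad7 was at 294, 166, and 102 CPM in the 3 sets, and Itgb8 at 0.45, 15.6, and 55.1 CPM.

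Tgfbi encodes a secreted matrix protein that is induced by TGF-β and is also a known transcript of monocytes. In the WT library, M2-like R2 macrophages had 697 CPM (672 to 722) and held 68.9% of its UMIs. R1 macrophages (327 CPM) and neutrophils (308 CPM) followed and were not apart from each other, and other R2 macrophages had 151 CPM. No WT lymphoid or proliferating cluster exceeded 14.4 CPM. A Tgfbi UMI was found in 81.8% of WT M2-like R2 cells, at a median of 9699 UMIs per cell, and in 1.68% of WT non-EM-like CD4+ T cells, at a median of 4897 UMIs. The Vsir-/- library had nearly the same order, with 624 CPM in M2-like R2 macrophages, 355 in R1 macrophages, 223 in neutrophils, and 193 in other R2 macrophages. The log2 ratio was −0.16 (−0.26 to −0.06) in M2-like R2 macrophages, 0.12 (−0.10 to 0.35) in R1 macrophages, −0.47 (−0.72 to −0.23) in neutrophils, and 0.36 (0.04 to 0.67) in other R2 macrophages. No myeloid cluster was at least 2-fold apart for Tgfbi.

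The ratios of at least 2-fold for Tgfbi were all in lymphoid clusters with few UMIs. In the B cell cluster there were 9 UMIs in 969 WT cells and 26 in 88 Vsir-/- cells (2.58 and 49.6 CPM), where 16.3% of all genes were at least 2-fold higher. The 26 UMIs came from 5 cells, and the 45 Vsir-/- cells with a B cell marker held 0, which allows up to 3. Macrophage genes (7 of 7 seen in both) summed to 181 CPM in WT and 730 CPM in Vsir-/- cells of this cluster. Non-EM-like CD4+ cells had 15 and 46 UMIs (3.37 and 10.0 CPM), of which 1 Vsir-/- cell held 11, and 47.8% of all genes were at least 2-fold higher there. EM-like CD4+ cells had 17 and 4 UMIs (6.07 and 2.54 CPM), an interval that included 0 (−3.29 to 0.36), and 5.41% of the genes compared there were at least 2-fold lower.

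Over the 12 clusters there were 80 pairs of a member and a cluster with at least 20 UMIs. Of these, 8 were at least 2-fold higher and 7 at least 2-fold lower in the Vsir-/- library. The B cell cluster had 2 higher and 1 lower of 7 members compared, where 16.3% of all genes were higher and 15.9% lower. The EM-like CD4+ cluster had 1 and 1 of 8 (10.4% and 5.41% of all genes), the non-EM-like CD4+ cluster 3 and 2 of 8 (47.8% and 10.7%), and the proliferating cluster 2 and 0 of 8 (37.5% and 9%). R1 macrophages had 0 higher (13.6% of all genes) and 1 lower (8.78%) of 7, other R2 macrophages 0 higher (6.71%) and 1 lower (9.52%) of 7, and NK cells 0 higher (9.86%) and 1 lower (7.01%) of 6. No member was at least 2-fold apart in M2-like R2 macrophages, where 8.11% of all genes were higher and 7.61% lower, or in neutrophils, where the shares were 9.99% and 10.6%. Tgfb1 in neutrophils was 2.00-fold lower by its levels and missed the count through the 0.5 UMI added. There was also no member at least 2-fold apart in γδT cells (5.98% and 6.6% of all genes), EM-like CD8+ T cells (6.03% and 9.98%), or non-EM-like CD8+ T cells (11.1% and 9.66%). With 4 to 8 members per cluster, 1 member is close to these background shares, so the counts alone do not set the axis apart from other genes.

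The rest of the pathway was described with a list of 95 genes that includes the 8 members. R1 macrophages had 14 genes at least 2-fold higher and 2 lower of 62 compared, or 22.6% and 3.23%, beside 13.6% and 8.78% of all genes. M2-like R2 macrophages had 9 and 1 of 61 (14.8% and 1.64%, beside 8.11% and 7.61%). Other R2 macrophages had 5 and 3 of 53 (9.43% and 5.66%, beside 6.71% and 9.52%), and neutrophils had 6 and 2 of 55 (10.9% and 3.64%, beside 9.99% and 10.6%). The median log2 ratio of the list was 0.11 in R1 cells and 0.07 in M2-like R2 cells, beside −0.01 and 0.01 for all genes. In R1 cells, the 2 lower genes were Tgfbr1 and Ep300, an acetyltransferase that acts as a Smad coactivator, which had 168 and 83.1 CPM. The higher genes included Eng, an accessory receptor of endothelial cells (27.3 and 211 CPM), Id1, a target of the related BMP signal (1.44 and 75.6 CPM), and Ccn1, a matricellular gene with 0 and 101 UMIs, which is at least 14.6-fold higher over a floor of 3 UMIs. Endothelial genes were also higher in these cells, as given above, and their part was not tested.

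In M2-like R2 macrophages, Fn1, the fibronectin gene and a classic TGF-β target, was at 499 CPM in the WT library and 1466 CPM in the Vsir-/- library (2.94-fold). Id3 was at 65.1 and 202 CPM, and Mmp14, a membrane-bound protease that can release latent TGF-β, at 7.28 and 74.0 CPM. Tubule genes were at 41.2 CPM with 6 of 15 seen in WT and 1864 CPM with 15 of 15 seen in Vsir-/- cells of this cluster, and their part in these differences was not tested. Mmp14 was also at 10.1 and 110 CPM in other R2 macrophages and at 18.7 and 63.7 CPM in R1 macrophages, so it was higher in all 3 macrophage clusters, values that were chosen after they were seen. Tgfbi, a target in the same list, did not share this, as its ratios in these clusters lay between −0.16 and 0.36. In neutrophils, Thbs1, which encodes thrombospondin 1, an activator of latent TGF-β, was at 86.3 and 242 CPM, and tubule genes were at 11.3 and 4127 CPM.

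The lymphoid and proliferating clusters varied more. The non-EM-like CD4+ cluster had 51 genes higher and 4 lower of 84 (60.7% and 4.76%, beside 47.8% and 10.7% of all genes), with a median of 1.70 for the list and 0.91 for all genes. Proliferating cells had 52 and 2 of 88 (59.1% and 2.27%, beside 37.5% and 9%), with medians of 2.18 and 0.51. Among the highest in both were Eng, Ccn1, and Ccn2, the connective tissue growth factor gene, which had 0 WT UMIs and 1812 and 1462 Vsir-/- UMIs in the 2 clusters. Most Vsir-/- cells of these clusters had no T cell transcript. Besides Smad7 and Skil, Itgb3 was lower in the non-EM-like CD4+ cluster, with 114 and 23 UMIs (log2 ratio of −2.33). In EM-like CD4+ T cells, 10 genes were higher and 2 lower of 59 (16.9% and 3.39%, beside 10.4% and 5.41% of all genes). Those with at least 100 UMIs included Furin, the protease that cleaves the TGF-β precursor (171 and 624 CPM), Id3 (14.6 and 53.3 CPM), and Junb (939 and 2383 CPM). Junb, an immediate early gene that is also a TGF-β target, was likewise at 1208 and 3396 CPM in γδT cells, where 2 genes were higher and 1 lower of 25 (8% and 4%, beside 5.98% and 6.6%). Junb is also among the listed genes induced by dissociation, and the part of dissociation in its levels was not tested.

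Non-EM-like CD8+ T cells had 6 genes higher and 6 lower of 47 (12.8% each, beside 11.1% and 9.66% of all genes). Itgae was at 32.4 and 9.05 CPM there, Smad2 at 27.1 and 11.3 CPM, and Pmepa1, a feedback inhibitor, at 41.3 and 18.1 CPM, although the Vsir-/- values rested on 4, 5, and 8 UMIs. Junb and Id3 were higher in the same cluster, at 609 and 1307 CPM and at 16.4 and 65.6 CPM. The part of dissociation in these levels was not tested. EM-like CD8+ T cells had 3 higher and 5 lower of 32 (9.38% and 15.6%, beside 6.03% and 9.98%), with Itgb1 at 324 and 669 CPM. NK cells had 7 higher and 4 lower of 45 (15.6% and 8.89%, beside 9.86% and 7.01%), with Rgs16 at 19.7 and 73.0 CPM, Cdkn1a at 21.3 and 55.2 CPM, and Nrros, which anchors latent TGF-β on myeloid cells, at 29.3 and 9.86 CPM. The B cell cluster had 14 higher and 4 lower of 50 (28% and 8%, beside 16.3% and 15.9%), with Id2 at 25.8 and 271 CPM, Itgb1 at 24.4 and 212 CPM, and Gdf11 at 27.6 and 7.62 CPM. The Vsir-/- values of Nrros in NK cells and Gdf11 in B cells rested on 5 and 4 UMIs. Only 45 of the 88 Vsir-/- cells of the B cell cluster had a B cell marker UMI, and tubule genes were at 12.6 and 8732 CPM in this cluster. The part of the other cells and of tubule transcripts in the pathway values of this cluster was not tested.

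**Figure D5:**
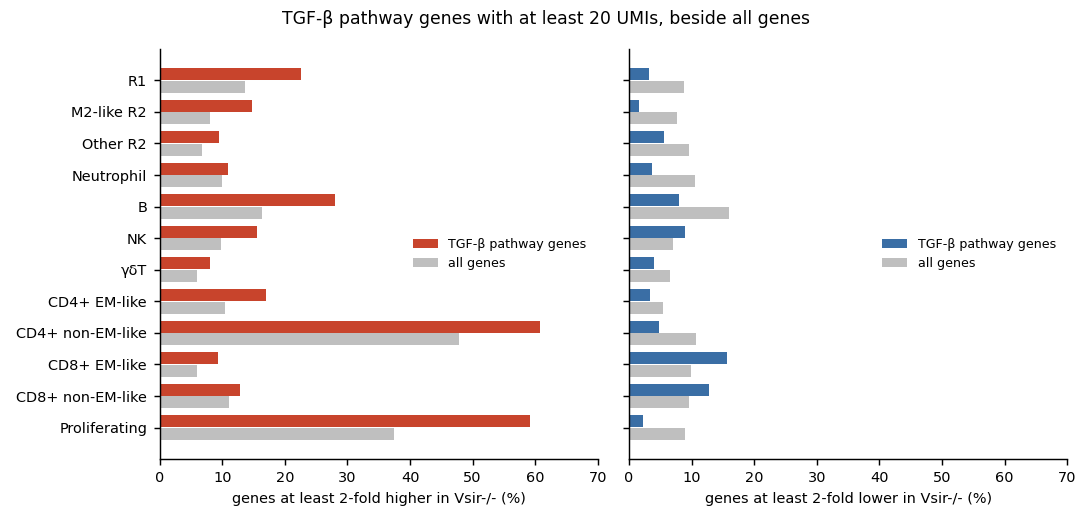
Percent of TGF-β pathway genes (colored bars) and of all genes (gray bars) with at least 20 UMIs that were at least 2-fold higher (left) or lower (right) in the Vsir-/- library, by cluster. The non-EM-like CD4+ and proliferating clusters have the most genes higher, both for the pathway (60.7% and 59.1%) and for all genes (47.8% and 37.5%).

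The genes whose levels followed each member most closely were found over the same 28 profiles, among 8785 genes with at least 500 UMIs. Lilra5 (Pearson r of 0.90), Lacc1 (0.88), and Mmp13 (0.84) were most like Tgfbr1, Ifi204, Csf2ra, and Clec12a (each 0.97) most like Tgfbi, and Sesn3 (0.90), Ablim1 (0.88), and Foxo1 (0.88) most like Smad7. Itgb1bp1 (0.89), S100a13 (0.88), and Sytl2 (0.87) were most like Smad3, and Cic (0.85), Calhm2 (0.84), and Ywhag (0.81) most like Tgfb1. Echdc2 (0.97), Aif1l (0.96), and Mfsd4b5 (0.95) were most like Itgb8. Exoc6b (0.80), Chd6 (0.75), and Apc (0.73) were most like Tgfbr2, and Milr1 (0.78), Tor1aip1 (0.76), and Dclre1c (0.75) most like Skil. Among the members, Tgfbr1 and Skil were the pair most alike, with an r of 0.71. These values share depth and background RNA within a library and are descriptions.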

How the data were processed

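Kidney cells of 1 WT and 1 Vsir-/- library were profiled by 3′ single-cell RNA sequencing. The submitters' processing notes name Cell Ranger 3.1.0, R 4.0.3, Seurat 3.2.3, and genome build mm9. The deposited matrix holds UMI counts per gene and cell, which the authors made with Cell Ranger and filtered for cells with at most 10% mitochondrial UMIs. The mitochondrial percent of each cell was deposited by the authors in the metadata, with UMAP coordinates, a score that was not used here. The authors merged the libraries with SCTransform and named the clusters, and these names were kept. How doublets were treated is not given in the sources used here.

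UMIs were summed by cluster and library and divided by all UMIs of the same cells. Levels have exact Poisson, shares exact binomial (Clopper-Pearson), and ratios exact conditional intervals at 95%, which cover counting error only. Genes with at least 20 UMIs over both libraries were compared, with 0.5 UMI added to each side when a ratio was used to count genes at least 2-fold apart. A level of 0 was given a floor of 3 UMIs. For thinned values each cell was reduced to 1000 UMIs. With 1 library per genotype, no test was made. The 3 genes most like each member were named by Pearson correlation of log2(CPM + 10), and in each cluster the pathway genes at least 2-fold apart with the largest ratios among those with at least 100 UMIs were named. The members and lists were chosen with earlier results of these data known. One listed marker is not reported here. The restrictions to B cell, NK, or C1q transcripts and the removal of shared barcodes were chosen after seeing the data. Alternatives covered the UMI minimum, depth, mitochondrial share, Ptprc, T cell transcripts, tubule share, and scaling. The scripts were tested on simulated data. Python 3.11.15, numpy 2.4.6, scipy 1.17.1, pandas 2.3.3, and matplotlib 3.10.9 were used.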

Additional observations from a re-analysis of the deposited data

How the results depend on the processing

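No paired analysis was possible because each genotype had 1 library. Over 88 log2 ratios and 810 values under alternatives, 704 lay within the counting interval of the reported ratio and 106 outside it, and 742 kept their direction. For the 16 ratios of at least 2-fold, all 146 values kept their direction and 35 lay outside the interval. The direction of smaller ratios could thus depend on the setting. Alternatives that left fewer than 20 UMIs were not among these values, except when the cell with the most UMIs of the gene was left out. Some of the values not included did not keep the direction. In B cells with a B cell marker, the log2 ratio was −0.79 for Tgfbi (9 and 0 UMIs) and −0.001 for Smad3 (16 and 1 UMIs). In the whole B cell cluster these ratios were 4.21 and 1.39. Tgfbr1 in R1 macrophages lay between −1.15 and −0.98 over 11 alternatives, 2 of them just under 2-fold, and Smad7 in other R2 macrophages between −1.18 and −1.04 over 9. Over 11 alternatives, Smad3 in NK cells lay between −3.30 and −0.86 (the mean over cells) and Tgfb1 in B cells between −1.87 and −0.97 (cells of at most the median tubule share), so 1 alternative took each below 2-fold. With at most 5% mitochondrial UMIs, the log2 ratio was −1.87 for Tgfb1 in B cells, −1.05 for Smad7 and −0.75 for Skil in non-EM-like CD4+ cells, and 4.07 for Itgb8 in all cells. With cells thinned to 1000 UMIs, it was 1.44 for Tgfbr2 in proliferating cells, −3.30 for Smad3 in NK cells (no Vsir-/- UMI was left), −1.07 for Smad7 in non-EM-like CD4+ cells, and 4.48 for Itgb8. With only Ptprc+ cells, these were 1.75 for Tgfbr2, −0.77 for Smad7, −0.61 for Skil, and 4.35 for Itgb8. With only cells holding a T cell transcript in T cell and proliferating clusters, they were −0.83 for Smad7, −0.66 for Skil, and 4.34 for Itgb8. With only cells of at most the median tubule share of their own cluster and library, they were 2.66 for Tgfbr2, −0.95 for Smad7, −0.66 for Skil, and 2.80 for Itgb8. Centred on the median of all genes, they were 1.61 for Tgfbr2, −2.22 for Smad7, and −1.93 for Skil. As the mean over cells, they were 1.57 for Tgfbr2, −1.06 for Smad7, −0.74 for Skil, and 4.30 for Itgb8. The cause of these shifts was not tested. The 8 member and cluster pairs at least 2-fold higher were 2 with thinned cells, 13 with a minimum of 5 UMIs, and 19 with none, and the 7 lower were 12 without the cell with the most UMIs of the gene. For the pathway list, of 661 pairs, the 179 higher pairs were 63 with thinned cells, 301 with a minimum of 5 UMIs, and 511 with none, and the 36 lower pairs were 56 with that minimum and 72 with none. Shares of all genes were not counted under these alternatives, so the member and pathway counts cannot be set against a background there. Alternatives that left fewer than 20 UMIs are in none of the ranges and counts of ratios given here, with 2 exceptions. These are the changed minimums and the setting without the cell with the most UMIs of the gene.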

Other observations

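Of the 95 pathway genes, 15 had 0 UMIs in the WT library. These included the ligand genes Tgfb2, Bmp4, and Bmp6, which had 167, 291, and 314 UMIs in the Vsir-/- library, the integrin gene Itgb6 with 549 UMIs, the latency gene Ltbp4 with 368 UMIs, and the matrix genes Col1a2 and Col3a1 with 649 and 871 UMIs. The share of all genes with 0 WT UMIs was not counted, so this count does not set the pathway apart. The part of the authors' gene filter in these levels of 0 was not tested. Tubule genes were at 17.1 CPM in the WT library and 8351 CPM in the Vsir-/- library, and their part was not tested.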
